A study of Mus musculus with 8 samples.

Results

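The 39 Hox genes of the mouse HoxA, HoxB, HoxC and HoxD clusters were followed in 8 RNA libraries from mouse embryonic fibroblasts (MEFs). They were chosen by name alone, as every gene called Hox with a cluster letter a to d and a number, out of 55358 genes whose transcript values were summed. MEFs are mixed connective-tissue cells grown from mouse embryos. Each of 4 groups held 2 libraries: wild type (WT) and Arid5a-/- cells, both cultured for 24 h either without IL-6 or with IL-6 at 100 ng/ml. The Arid5a-/- groups are called KO here. Arid5a encodes a protein with an AT-rich interaction domain that binds RNA and is known for stabilising Il6 mRNA, and IL-6 is an inflammatory cytokine. The labels give neither the age or strain of the embryos nor the origin of the 2 libraries of a group. If these share a culture, the spread behind every p-value is technical.

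Hox genes encode transcription factors that bind DNA through a homeodomain and tell cells where along the body axis they lie. Within a cluster the genes are numbered from the 3′ end, and genes of the same number in different clusters are called paralogs. The 3′ genes are switched on first and mark anterior levels, and the 5′ genes are switched on later and mark posterior levels and the far parts of the limbs. Fibroblasts keep a Hox profile of their place of origin in culture, and Polycomb and Trithorax proteins hold the silent and active parts of the clusters in place. All values are FPKM, fragments scaled by transcript length and by the number mapped in the library, so levels of different genes can be set side by side.

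On the GRCm38 build, HoxA held 11 members at chr6:52155590-52260880 on the minus strand. HoxB held 10 at chr11:96194316-96368256, HoxC 9 at chr15:102921103-103036852 and HoxD 9 at chr2:74668310-74765142, all on the plus strand. The coding sequence joins the members: in the 38 homeoboxes of 180 bases that could be read from GENCODE M21 transcripts, members with the same number in different clusters had a median identity of 80.6% (67.2% to 92.8%, 40 pairs). Other pairs from different clusters had a median of 60.6% (46.1% to 86.1%, 501 pairs). Hoxa3 gave none: its longer coding transcript spans Hoxa4, Hoxa5 and Hoxa6 and was set aside, and none was found in the other. The 51 bases coding for the third helix, which reads the DNA, are shown for paralogs 10 and 13, because the paralogs of number 10 moved together in these cells and those of number 13 did not. The 12 bases in capitals code for the tryptophan, phenylalanine, glutamine and asparagine by which each homeobox was located.
Hoxa10: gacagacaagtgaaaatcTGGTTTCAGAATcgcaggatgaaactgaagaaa
Hoxc10: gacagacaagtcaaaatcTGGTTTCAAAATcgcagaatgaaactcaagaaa
Hoxd10: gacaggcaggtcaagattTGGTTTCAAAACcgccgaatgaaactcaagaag
Hoxa13: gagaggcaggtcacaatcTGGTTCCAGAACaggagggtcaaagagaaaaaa
Hoxc13: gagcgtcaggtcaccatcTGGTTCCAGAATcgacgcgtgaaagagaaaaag
Hoxd13: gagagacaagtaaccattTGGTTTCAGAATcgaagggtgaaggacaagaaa

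The longest exact run shared by transcripts of members in different clusters was 52 bases (Hoxa6 and Hoxb4), and the median over same-numbered pairs was 17 bases. Fragments that fall wholly inside such runs could be assigned to either gene. Some members also overlap other genes: Hoxa11 lies opposite Hoxa11os, Hoxb2 and Hoxb3 opposite Hoxb3os, and Hoxd8 opposite Hoxd3os1, among others. The libraries were made with a stranded kit, but whether strand was used in the counting is not given in the sources used here, so values of such partners are uncertain. Of 87 Hox transcripts, 4 span another Hox gene.

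The libraries' FPKM totals ran from 536816 to 584995, the depth behind them is unknown, and libraries of one group correlated at 0.997 over genes. Arid5a itself stood at 15.9 to 31.0 FPKM in WT and 5.51 to 8.47 in KO, lower but not at 0; the sources used here do not say what the deletion takes out, so this level does not check it. The Y-linked Ddx3y was at 34.6 to 36.6 FPKM in WT and at most 0.007 in KO, while Xist, made from an inactive X chromosome, was at most 0.006 in WT and 55.2 to 61.0 in KO. Sex and genotype therefore cannot be told apart. The 10 fibroblast markers summed to 3424 to 4036 FPKM in WT and 5206 to 5459 in KO but did not move together. Without IL-6, 4 were higher in KO (Col1a1, Col3a1, Dcn and Fn1) and 5 lower (Pdgfra, Pdgfrb, Thy1, Lum and Vim). Over all genes tested, by the test given below, 36.4% were higher and 34.5% lower. The median difference of the 10 markers was -0.55 on the log2 scale also defined below. Lum was at 3.19 to 3.68 FPKM in WT and at most 0.321 in KO, and Pdgfrb at 48.1 to 50.3 and 6.97 to 7.40. Of 6 epithelial markers, Krt14 was listed at 0 in WT and stood at 61.4 to 65.97 FPKM in KO, and Cdh1 was at 0.197 to 0.527 and 5.78 to 6.15. The others did not rise: Epcam was at 0.421 to 0.662 in WT and 0.487 to 0.636 in KO, and Krt5, Cldn4 and Cldn6 were below 0.1 in every library. The 10 mesothelial markers, by contrast, summed to 39.3 to 53.4 FPKM in WT and 1673 to 1734 in KO. Wt1, Upk3b, Upk1b, Lrrn4 and Gata5 were below 0.1 in every WT library. Most of the WT sum was Msln, at 34.2 to 46.7 FPKM in WT and 224 to 239 in KO. The part of this cell-type difference, or of sex, in any result on Hox genes was not tested, and in bulk RNA fewer cells of a type and less RNA per cell cannot be told apart.

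Hox FPKM in wild-type MEFs came mostly from paralogs 9 to 13. In KO MEFs it was much smaller and came mostly from paralogs 1 to 4 and 5 to 8. The summed FPKM of all 39 members was 365, 355, 355 and 357 in the 4 WT libraries (without IL-6, then with it) and 64.0, 66.2, 66.0 and 67.99 in the 4 KO libraries in the same order. The KO mean was 18.5% of the WT mean, and no library of either genotype came near the other range. HoxC lost most: it summed to 139 to 143 FPKM in WT and 6.87 to 7.83 in KO, 5.32% of WT. HoxA kept 13.8%, HoxD 23.2% and HoxB 39.8%.

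**Figure D1:**
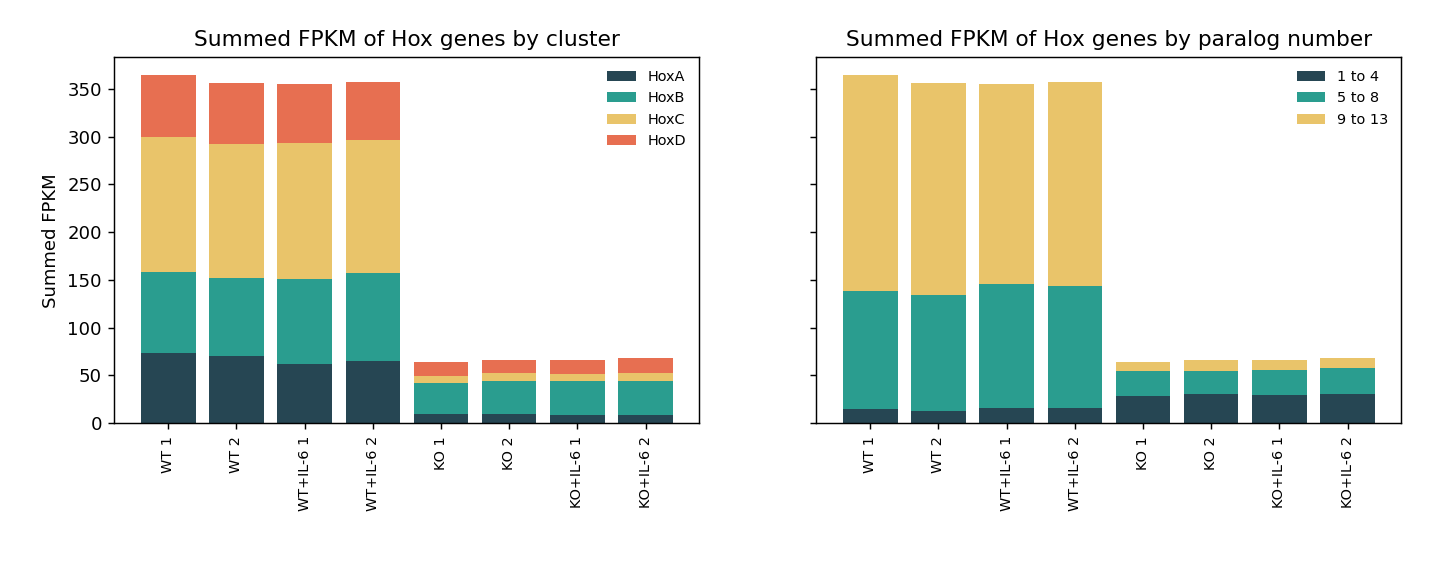
Summed FPKM (y axis) of Hox genes in each of the 8 libraries (x axis), stacked by cluster on the left and by paralog number on the right. The 4 WT bars reach 355 to 365 and the 4 KO bars 64.0 to 67.99, and the paralogs 9 to 13 that fill most of each WT bar are a small part of each KO bar.

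The order of the groups along the clusters changed as well as the amount. Paralogs 1 to 4 summed to 12.9 to 15.8 FPKM in WT and 28.5 to 30.6 in KO. Paralogs 5 to 8 had a mean sum of 126 FPKM in WT and 26.1 in KO, and paralogs 9 to 13 ranged from 210 to 226 FPKM in WT and from 9.53 to 11.1 in KO. As shares of all Hox FPKM, paralogs 1 to 4 took 4.14% in WT and 44.8% in KO, and paralogs 9 to 13 took 60.8% and 15.6%. The central paralogs held a similar share, 35.1% and 39.6%. Among clusters, HoxC went from 39.3% to 11.3% of Hox FPKM and HoxB from 24.3% to 52.5%. These sums are descriptions over 4 libraries of each genotype, with no test.

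The most abundant members in WT were Hoxc10 with a mean of 47.6 FPKM ± 1.40 (SD, n = 4), Hoxc6 with 46.1 ± 2.58 and Hoxb9 with 42.7 ± 2.62. Hoxc6 overlapped both others in its library values, while every Hoxc10 library lay above every Hoxb9 library. Hoxd9 with 23.4 ± 1.48 and Hoxa10 with 22.0 ± 2.19 followed, and also overlapped each other. The KO cells were led by other members: Hoxd8 with 10.3 FPKM ± 0.932, Hoxb2 with 9.64 ± 0.496 and Hoxb7 with 9.04 ± 0.541 overlapped in their libraries, followed by Hoxb3 with 7.05 ± 0.262 and Hoxc13 with 6.41 ± 0.367. In every WT library 28 of the 39 members reached 1 FPKM, against 12 in every KO library. Hoxb1, a marker of the hindbrain in the embryo, was listed at 0 in all 8 libraries.

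**Figure D2:**
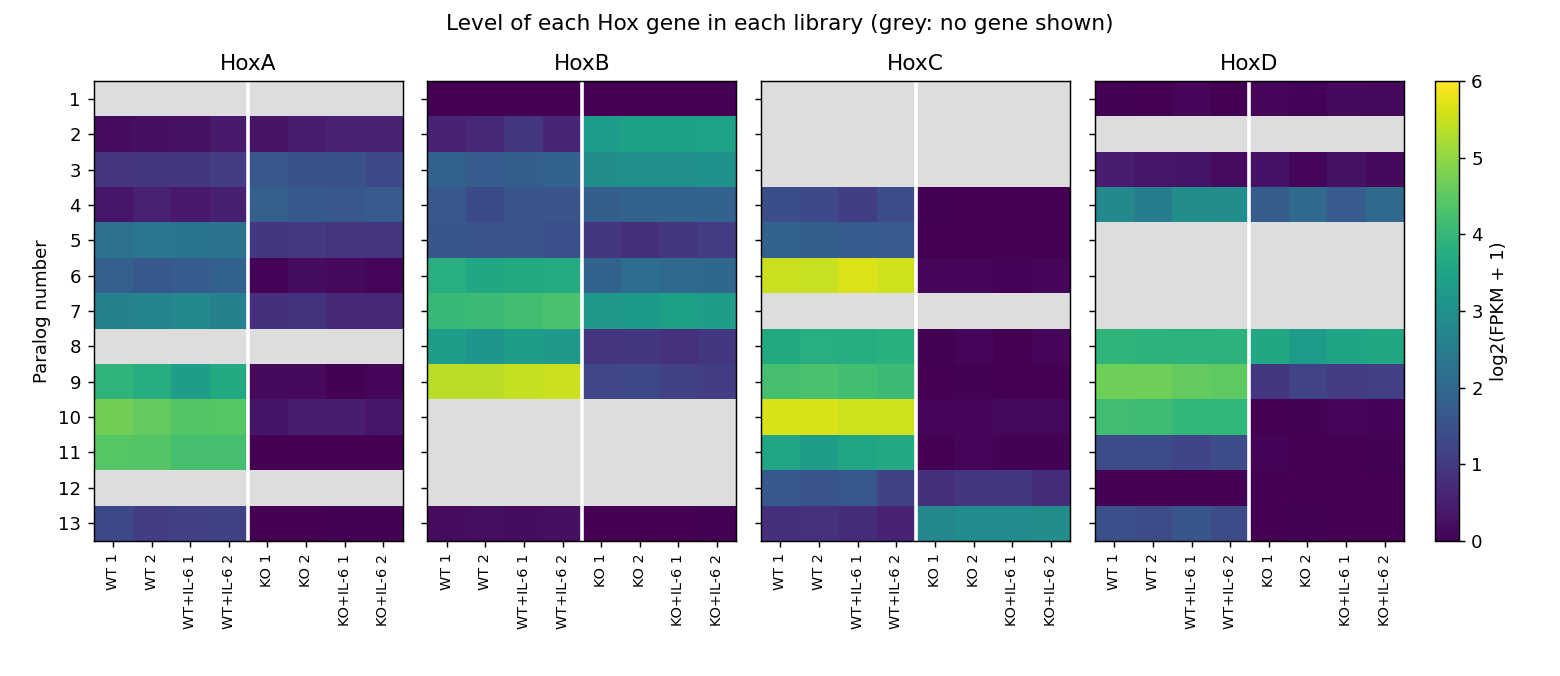
Level of 38 members as log2(FPKM + 1) (colour) by library (x axis, WT left of the white line) and paralog number (y axis) in the 4 clusters, with grey where no gene is shown. Bright cells lie at paralogs 6 to 11 in WT, with Hoxc10, Hoxc6 and Hoxb9 brightest, and at Hoxb2, Hoxb3, Hoxb7, Hoxd8 and Hoxc13 in KO.

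For 27 of 39 members all 4 KO libraries lay below all 4 WT libraries, and for 7 all 4 lay above. Over the 27454 genes above 0 in any library the same separation held for 22.1% downward and 22.2% upward. The other 5 members (Hoxa2, Hoxb1, Hoxd1, Hoxd3 and Hoxd12) overlapped, and none of them reached 1 FPKM. A switch from high to near 0 was rarer: of 7247 genes at 10 FPKM or more in every WT library, 25 (0.345%) were below 0.1 FPKM in every KO library, and 6 of these 25 were Hox genes (Hoxa11, Hoxc6, Hoxc8, Hoxc9, Hoxc10 and Hoxd10), of 12 members at that level in WT.

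KO was compared with WT, without and with IL-6, by limma on log2(FPKM + 1) over all 13693 genes that reached 1 FPKM in at least 2 libraries, with Benjamini-Hochberg adjustment and a call at an adjusted p below 0.05. Differences below are on that log2 scale, which understates the change of low genes, and the adjusted p is that of limma throughout. Of the 39 members, 33 passed the filter: 20 through WT libraries alone, 5 through KO libraries alone and 8 through both. A member that passed through one genotype alone had to differ, so the counts describe these members and support nothing further. Without IL-6, 7 were higher in KO, among them Hoxa3, Hoxa4, Hoxb2, Hoxb3, Hoxb4 and Hoxc13, and the other 26 were lower. With IL-6 the same 7 were higher and the same 26 lower. Over all genes tested 36.4% were higher and 34.5% lower without IL-6, and 36.9% and 34.8% with it. The median difference over the 33 was -1.41 without IL-6 and -1.49 with it, against 0.01 in both over all genes tested.

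**Figure D3:**
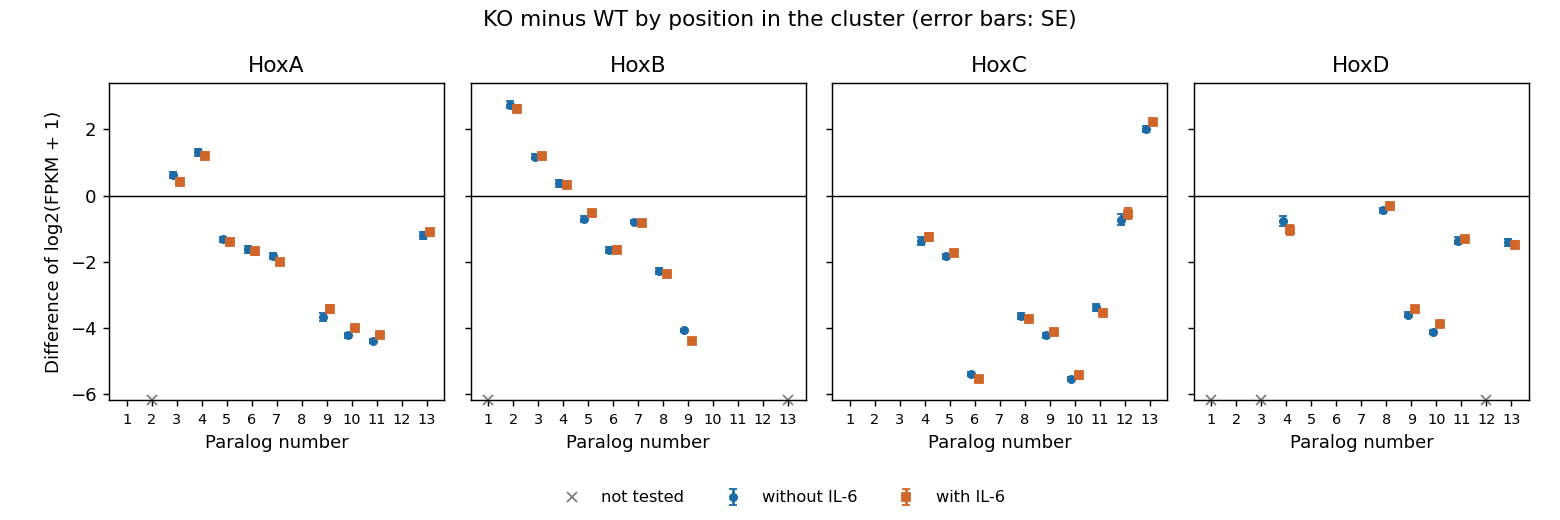
KO minus WT difference of log2(FPKM + 1) (y axis, ± SE) against paralog number (x axis) in each cluster, without IL-6 (circles) and with IL-6 (squares), with crosses at the foot for the 6 members not tested. In HoxA and HoxB the points run from above 0 at the low numbers to about -4 at paralogs 9 to 11, whereas HoxC runs the other way at its 5′ end, up to 2.23 at Hoxc13.

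Direction went with position along HoxA and HoxB. Over the 4 clusters together, 6 of the tested paralogs 1 to 4 were higher and 2 lower, and all 11 of paralogs 5 to 8 were lower. Of paralogs 9 to 13, 13 were lower and 1, Hoxc13, was higher. Over all genes tested 36.4% were higher and 34.5% lower without IL-6. Since 20 of the 33 members passed the filter through WT libraries alone and 5 through KO alone, these counts only describe the members. Over all members of a cluster, the rank correlation between paralog number and the log2 difference of the mean levels was -0.77 in HoxA (11 genes), -0.73 in HoxB (10), -0.47 in HoxD (9) and 0.28 in HoxC (9). The genes share the same 8 libraries, so these are descriptions.

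Hoxb2, which patterns the hindbrain and its neural crest, rose most of the 3′ genes. It stood at 0.511, 0.580, 0.946 and 0.575 FPKM in the WT libraries and at 8.93, 9.88, 9.69 and 10.04 in the KO libraries. Every KO library was above every WT library, and the difference was 2.75 ± 0.11 (SE) without IL-6 (17.2-fold in FPKM, adjusted p = 3.71e-07) and 2.63 ± 0.11 after IL-6 (adjusted p = 4.46e-07). Hoxa2, which patterns the second branchial arch, was at 0.130 to 0.348 FPKM in WT and 0.252 to 0.476 in KO, overlapped and was not tested.

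Hoxb3 and Hoxa4, genes of the hindbrain and neck levels, rose too. Hoxb3 was at 2.35 to 2.67 FPKM in WT and 6.71 to 7.34 in KO (1.17 ± 0.07 without IL-6, adjusted p = 4.63e-06). Hoxa4 was at 0.296 to 0.456 FPKM in WT and 2.08 to 2.56 in KO (1.30 ± 0.11, adjusted p = 1.99e-05). Hoxa3, known for its part in forming the thymus and parathyroid, was at 0.886 to 1.05 FPKM in WT and 1.49 to 2.11 in KO (0.62 ± 0.10, adjusted p = 0.000979). Most of Hoxa3's value, 80.4% over the 4 WT libraries and 89.8% over the 4 KO libraries, came from a transcript that spans Hoxa4, Hoxa5 and Hoxa6, and without such transcripts the gene fell below the filter. Hoxb4, used to expand blood stem cells, moved least, from 1.53 to 2.12 FPKM in WT to 2.53 to 2.77 in KO. Its difference was 0.37 ± 0.11 without IL-6 (adjusted p = 0.0155) and 0.33 ± 0.11 after IL-6 (adjusted p = 0.0274). That call was lost without WT replicate 2 (adjusted p = 0.0757) or KO replicate 2 (0.0773) and, with IL-6, without any of the 4 libraries compared (0.0706 to 0.101).

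The other low-numbered members went down or were barely present. Hoxd4 fell from 6.06, 4.85, 6.85 and 6.69 FPKM in WT to 2.43, 3.19, 2.30 and 3.24 in KO (-0.76 ± 0.15 without IL-6, adjusted p = 0.00278, and -1.05 ± 0.15 after IL-6, adjusted p = 0.00048). Hoxc4 fell from 1.17 to 1.73 FPKM in WT to at most 0.0298 in KO (-1.37 ± 0.12, adjusted p = 2.88e-05), against the rise of its paralogs Hoxa4 and Hoxb4. The 4 genes of paralog number 4 thus split by cluster. Hoxd1 and Hoxd3 stayed at or below 0.379 FPKM in every library.

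All 11 central members were lower in KO, by very different amounts. Hoxc6, which marks thoracic levels and the forelimb field, was at 44.6, 43.9, 49.6 and 46.5 FPKM in WT and at 0.0766, 0.0520, 0.0355 and 0.0608 in KO. Without IL-6 the KO mean was 0.145% of the WT mean, and the difference was -5.41 ± 0.06 without IL-6 (adjusted p = 6.96e-10). Hoxc8, a thoracic gene, fell from 11.5 to 13.03 FPKM to at most 0.0575 (-3.65 ± 0.08, adjusted p = 1.49e-08). Hoxc5 went from 2.28 to 2.67 FPKM in WT to a listed 0 in all 4 KO libraries (-1.84 ± 0.08, adjusted p = 7.77e-07). The central HoxC genes were thus all at or near 0 in KO.

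In HoxA and HoxB the central genes fell but stayed on, apart from Hoxa6. Hoxa5, needed for lung and thoracic patterning, went from 3.82 to 4.12 FPKM to 0.878 to 1.03 (-1.33 ± 0.08, adjusted p = 2.87e-06). Hoxa7 went from 5.07 to 5.88 FPKM to 0.582 to 0.841 (-1.83 ± 0.09, adjusted p = 1.13e-06), and Hoxa6 from 2.15 to 2.62 FPKM to 0.0386 to 0.140 (-1.62 ± 0.10, adjusted p = 5.32e-06). Hoxa6 lies between these 2 genes, and its KO libraries kept 3.79% of the WT level without IL-6, against 24.7% for Hoxa5 and 14.8% for Hoxa7.

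Hoxb7 was among the least changed, at 15.1, 16.0, 17.2 and 18.5 FPKM in WT and 8.55, 8.62, 9.64 and 9.35 in KO (-0.79 ± 0.06, adjusted p = 1.01e-05). It kept 55.1% of the WT level without IL-6, and its groups did not overlap. On its flanks, Hoxb6 kept 26.4% (11.1 to 12.5 FPKM against 2.75 to 3.47, -1.64 ± 0.10, adjusted p = 3.15e-06) and Hoxb8 10.9% (7.82 to 9.10 FPKM against 0.821 to 0.9752, -2.30 ± 0.09, adjusted p = 3.78e-07). Hoxb5 was low throughout, at 1.75 to 2.02 FPKM in WT and 0.756 to 1.06 in KO (-0.71 ± 0.09, adjusted p = 0.000302).

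Hoxd8 kept the largest part of its WT level among the members that fell. It was at 14.2, 13.8, 13.4 and 13.71 FPKM in WT and 11.1, 9.02, 10.4 and 10.9 in KO. The KO libraries all lay below the WT libraries, at 71.7% of the WT mean without IL-6 and 78.6% with it. The difference was -0.45 ± 0.09 without IL-6 (adjusted p = 0.00218) and -0.32 ± 0.09 after IL-6 (adjusted p = 0.0109). With IL-6 the call was lost without WT replicate 2 (adjusted p = 0.0523) or KO replicate 1 (0.0617). Its neighbour Hoxd9, one gene toward the 5′ end, kept 4.55%.

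Summed over the clusters, the 5′ members fell furthest, and they had been the main Hox genes of the WT cells. Paralogs 9 to 13 kept 4.75% of their WT sum and paralogs 5 to 8 kept 20.8%. The HoxC sums went the other way, with 9.46% kept at paralogs 9 to 13 and 0.149% at paralogs 5 to 8. Of the mean of 7.38 FPKM in KO at HoxC paralogs 9 to 13, however, 6.41 was Hoxc13, which rose, and 0.846 was Hoxc12. Without IL-6, Hoxc9, Hoxc10 and Hoxc11 kept 0.0614%, 0.135% and 0.399% of their WT means. Hoxc10, a gene of the lumbar levels and hindlimb, was at 48.6, 49.04, 46.3 and 46.6 FPKM in WT and 0.0621, 0.0702, 0.0864 and 0.0985 in KO. This was the largest difference of any member without IL-6, -5.55 ± 0.05 (adjusted p = 4.39e-10), and KO held 0.135% of WT. Its paralogs followed. Hoxa10, which patterns the lumbar spine and the uterus, fell from 24.8, 22.7, 20.1 and 20.5 FPKM to 0.263, 0.380, 0.372 and 0.295 (-4.23 ± 0.08, adjusted p = 6.61e-09). Hoxd10 fell from 16.9, 16.6, 14.6 and 14.8 FPKM to 0, 0.0297, 0.0761 and 0.0390 (-4.13 ± 0.07, adjusted p = 3.54e-09). In none of these 3 did WT and KO libraries overlap.

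Paralogs 9 showed the same direction with more residual RNA in 2 clusters. Hoxb9 fell from 40.5, 40.7, 43.8 and 45.98 FPKM to 1.44, 1.47, 1.27 and 1.11 (-4.08 ± 0.06, adjusted p = 2.19e-09). Hoxd9 fell from 24.7, 24.7, 22.4 and 21.9 FPKM to 0.933, 1.32, 1.11 and 1.19 (-3.60 ± 0.09, adjusted p = 2.81e-08). Both stayed near 1 FPKM in KO. Hoxc9 fell from 15.9 to 18.3 FPKM to at most 0.0221 (-4.23 ± 0.07, adjusted p = 3.99e-09), and Hoxa9, a driver of leukaemia when misexpressed, from 9.11 to 13.98 FPKM to at most 0.1195 (-3.66 ± 0.12, adjusted p = 1.25e-07).

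Paralogs 11, which shape the forearm, the lower leg and the kidney, went to near 0 in all 3 clusters that have one. Hoxa11 fell from 20.5, 20.1, 17.7 and 17.9 FPKM to at most 0.013 (-4.41 ± 0.06, adjusted p = 2.19e-09). Hoxc11 fell from 9.06 to 11.3 FPKM to at most 0.0791 (-3.39 ± 0.10, adjusted p = 5.79e-08), and Hoxd11 from 1.40 to 1.66 FPKM to at most 0.0418 (-1.36 ± 0.10, adjusted p = 8.74e-06). The sum of the 3 was 29.9 to 32.9 FPKM in WT and at most 0.0791 in KO.

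Paralogs 12 and 13 did not move as one. Hoxc13, known for its part in hair and nail formation, stood at 0.777, 0.797, 0.712 and 0.514 FPKM in WT and 5.91, 6.61, 6.39 and 6.75 in KO. It was the one 5′ member that rose, by 2.02 ± 0.09 without IL-6 (7.95-fold in FPKM, adjusted p = 7.35e-07) and 2.23 ± 0.09 after IL-6 (10.7-fold, adjusted p = 4.01e-07). Its paralogs Hoxa13 and Hoxd13, genes of the hand and foot plate, went the other way. Hoxa13 fell from 1.13 to 1.49 FPKM to at most 0.0288 (-1.21 ± 0.11, adjusted p = 2.99e-05), and Hoxd13 from 1.59 to 2.03 FPKM to at most 0.0211 (-1.41 ± 0.10, adjusted p = 1.16e-05). The adjoining Hoxc12 fell from 2.199, 1.94, 2.17 and 1.29 FPKM to 0.756, 0.940, 0.963 and 0.725 (-0.73 ± 0.16, adjusted p = 0.00437, and -0.55 ± 0.16 with IL-6, adjusted p = 0.0165). With IL-6 that call was lost without WT replicate 1 (adjusted p = 0.0826) or KO replicate 2 (0.09). Hoxb13, at 0.122 to 0.185 FPKM in WT and at most 0.0210 in KO, and Hoxd12, above 0 in 1 library, were not tested.

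RefSeq promoter windows on GRCm38.p6, from 250 bases before to 50 after a transcript start, were given for 22 of the 39 members. CpG pairs, which Polycomb-bound promoters are rich in, numbered 4 to 45 in the 300 bases, with a median of 13.5, against 7 over all 32851 promoters of that length. The letters CCAAT, on either strand, were in 14 of the 22 (63.6%) and in 37.4% of all promoters. GGGCGG was in 9 (40.9%, against 35.7%) and TATAAA in 3 (13.6%, against 13.6%). The 8-base run TGATNNAT, the kind of site that Hox and Pbx proteins bind together, was in 3 (13.6%, against 8.85%). Both strands were searched for each, overlaps between motifs were kept, and a match describes the letters only.

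The 250 bases before the start are shown for 2 members that fell steeply and 1, from another cluster, that rose little, with each CpG in capitals. The call of the member that rose was lost in some alternatives. The 3 members are named next. They are Hoxa10 at chr6:52240855-52241104 on the minus strand, Hoxa11 at chr6:52245811-52246060 on the minus strand and Hoxb4 at chr11:96318017-96318266 on the plus strand. The 3 stretches hold 7, 13 and 14 CpG pairs in that order.
Hoxa10: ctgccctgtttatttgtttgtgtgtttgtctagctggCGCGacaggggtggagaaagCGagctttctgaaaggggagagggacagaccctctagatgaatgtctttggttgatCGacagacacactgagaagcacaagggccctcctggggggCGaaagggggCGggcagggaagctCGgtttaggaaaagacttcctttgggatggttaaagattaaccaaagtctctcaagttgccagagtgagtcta
Hoxa11: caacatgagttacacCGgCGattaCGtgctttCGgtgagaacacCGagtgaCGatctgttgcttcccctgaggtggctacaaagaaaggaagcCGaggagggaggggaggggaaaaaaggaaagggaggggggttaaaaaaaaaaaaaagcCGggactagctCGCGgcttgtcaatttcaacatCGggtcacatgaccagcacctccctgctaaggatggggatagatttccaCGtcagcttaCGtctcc
Hoxb4: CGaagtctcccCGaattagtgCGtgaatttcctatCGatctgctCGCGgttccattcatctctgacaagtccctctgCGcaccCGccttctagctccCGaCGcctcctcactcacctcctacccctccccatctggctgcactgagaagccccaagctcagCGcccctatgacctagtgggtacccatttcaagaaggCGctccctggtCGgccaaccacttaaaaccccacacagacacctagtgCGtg

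No Hox gene passed the same test for IL-6 in either genotype. In WT, 0 of 33 members passed, while 8.3% of all genes tested were higher with IL-6 and 7.41% lower (1136 and 1014 genes, or 818 and 1530 with equal FPKM totals). An unadjusted limma p below 0.05 was found for 6 of the 33 members and for 3993 of all 13693 genes tested. The differences of the 33 ran from -0.32 to 0.27, and their 95% intervals lay between -0.60 and 0.63. The smallest p in WT belonged to Hoxb7, at 15.1 and 16.0 FPKM without IL-6 and 17.2 and 18.5 with it (0.18, 95% interval 0.05 to 0.32, adjusted p = 0.0722). Next came Hoxa11, at 20.5 and 20.1 FPKM without IL-6 and 17.7 and 17.9 with it (-0.18, -0.33 to -0.03, adjusted p = 0.104), and Hoxa10, at 24.8 and 22.7 without and 20.1 and 20.5 with it (-0.22, -0.40 to -0.04, adjusted p = 0.109). In these 3 the libraries with and without IL-6 did not overlap. They were taken for their small p, so this adds no support to the test.

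Some calls in WT depended on the settings. Hoxa11 passed with every library scaled to the same FPKM total (adjusted p = 0.0468), without limma's intensity trend (0.0367) and with 5 added before the log (0.0273). Hoxd10 passed without the trend (0.0472) and with 5 added (0.0301), and Hoxa10 with 5 added (0.0328). All 3 were lower with IL-6 in these settings. Over all 13693 genes tested, 818 were higher and 1530 lower with equal totals. Without the trend 953 were higher and 949 lower, and with 5 added 1151 and 984.

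In KO, 0 of 33 members passed with IL-6, but few genes moved there at all: 0.0219% of those tested were higher and 0% lower. An unadjusted limma p below 0.05 was found there for 1 of the 33 members and for 1025 of all 13693 genes tested. The differences of the 33 ran from -0.17 to 0.13, with 95% intervals between -0.39 and 0.37. Hoxb9 had the smallest p (1.44 and 1.47 FPKM without IL-6, 1.27 and 1.11 with it, -0.17, adjusted p = 0.592), followed by Hoxb7 (8.55 and 8.62 against 9.64 and 9.35, 0.13, adjusted p = 0.671) and Hoxa7 (0.749 and 0.841 against 0.626 and 0.582, -0.16, adjusted p = 0.752). The test of whether the IL-6 change differed between genotypes also called 0 of 33, against 6.06% of all genes. Its unadjusted p was below 0.05 for 2 of the 33 members and for 2916 of all 13693 genes tested. There Hoxb9 came first, higher with IL-6 in WT and lower in KO (KO minus WT -0.31, 95% interval -0.50 to -0.11, adjusted p = 0.0822). Hoxd10 (0.24, 0.02 to 0.46, adjusted p = 0.203) and Hoxa11 (0.19, -0.02 to 0.40, adjusted p = 0.28) followed.

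**Figure D4:**
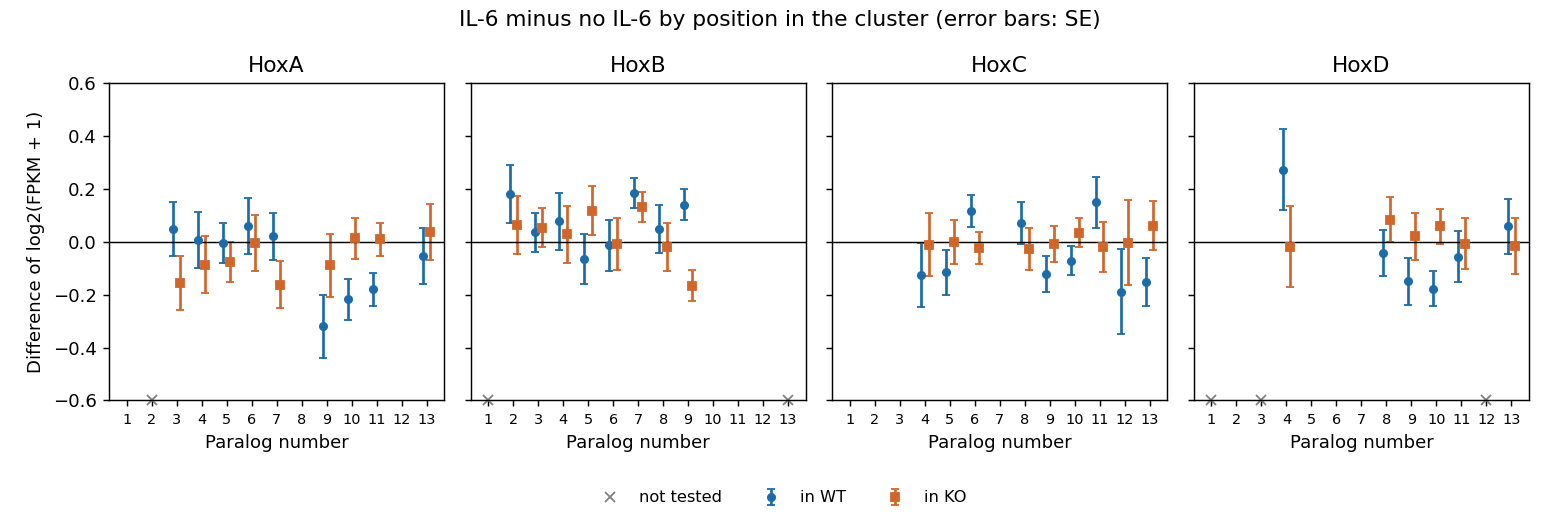
Change of log2(FPKM + 1) with IL-6 (y axis, ± SE) against paralog number (x axis) in each cluster, in WT (circles) and KO (squares), with crosses for members not tested. All points lie between -0.32 and 0.27, and no member passed the test.

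Of 15 listed non-coding RNAs of the Hox clusters, 6 passed the filter. Without IL-6, 2 were higher in KO, 3 lower and 1 did not pass, with the same counts with IL-6. Among all 15 tested genes of any type inside the clusters other than members, 3 were higher and 9 lower in both IL-6 states. Over all genes tested 36.4% were higher and 34.5% lower without IL-6. The limit given above for members that passed the filter through 1 genotype alone holds here too. Hoxa11os, antisense to Hoxa11, was at 25.5, 26.6, 24.0 and 24.7 FPKM in WT and at most 0.0393 in KO (-4.72 ± 0.06, adjusted p = 1.7e-09). Hotair, transcribed between Hoxc11 and Hoxc12 and studied as a partner of Polycomb, was at 0.888 to 1.38 FPKM in WT and at most 0.0147 in KO (-1.16 ± 0.10, adjusted p = 3.21e-05). At the 3′ end of HoxA, Hotairm1 rose from 2.22 to 3.61 FPKM to 7.38 to 9.95 (1.35 ± 0.19, adjusted p = 0.000408). Hoxb3os rose (0.34 ± 0.12, adjusted p = 0.0352) and Hoxd3os1, opposite Hoxd8, fell (-0.27 ± 0.08, adjusted p = 0.0163). Hoxaas3 differed by 0.52 ± 0.22 (adjusted p = 0.0629).

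Outside that list, 2 RNAs were singled out after their values were seen. Gm53, a long non-coding RNA between Hoxb9 and Hoxb13, went from 24.9 to 31.8 FPKM in WT to at most 0.0987 in KO (-4.67 ± 0.07, adjusted p = 3.24e-09). Gm14396, between Hoxd9 and Hoxd10, went from 2.90 to 4.56 FPKM to a listed 0 in every KO library (-2.22 ± 0.16, adjusted p = 9.77e-06). The 6 listed microRNA genes of the clusters were at 0 in every library, and libraries made from poly(A) RNA measure these poorly.

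Protein-coding genes within 500 kb of the clusters went both ways. Of 31 tested, 11 were higher and 13 lower in KO without IL-6, and 12 and 14 with it, near the shares of all genes tested (36.4% higher and 34.5% lower without IL-6). The nearest protein-coding genes tested on either side of HoxD, Lnpk and Mtx2, differed by 0.04 ± 0.07 (adjusted p = 0.688) and 0.39 ± 0.08 (adjusted p = 0.00253), and the nearest tested beside HoxC, Smug1, by 0.04 ± 0.10 (adjusted p = 0.713). These 3 were picked for their distance and do not stand for the flanks of all clusters. Without IL-6, all 3 tested genes flanking HoxA were higher in KO. Flanking HoxB, 4 of 10 were higher and 4 lower, flanking HoxC 3 of 16 higher and 9 lower, and flanking HoxD 1 of 2 higher.

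Hox proteins bind DNA together with TALE homeodomain proteins of the Pbx, Meis and Pknox families. All 9 listed were expressed, and without and with IL-6, 4 were higher in KO, 3 lower and 2 did not pass, shares near the 36.4% higher and 34.5% lower of all genes tested without IL-6. Meis2 was at 13.98, 15.5, 11.95 and 15.4 FPKM in WT and 37.8, 46.1, 38.7 and 40.2 in KO (1.45 ± 0.13, adjusted p = 3.03e-05), without overlap. Pknox2 rose from 0.677 to 1.46 FPKM to 2.34 to 3.70 (1.19 ± 0.17, adjusted p = 4e-04). Pbx3 fell from 26.1 to 32.9 FPKM to 16.6 to 19.7 (-0.79 ± 0.09, adjusted p = 9.14e-05).

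**Figure D5:**
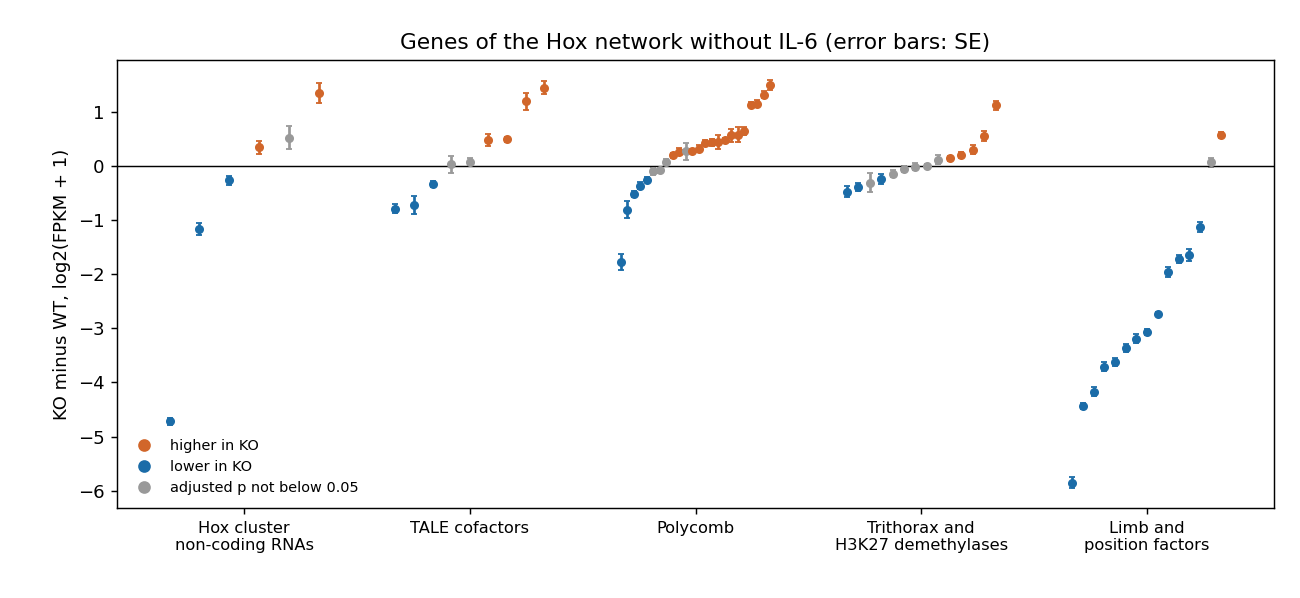
KO minus WT difference of log2(FPKM + 1) without IL-6 (y axis, ± SE) for each tested gene of 5 lists (x axis), coloured by the call. Polycomb genes lie mostly above 0 and up to 1.49, TALE and Trithorax genes on both sides of 0, and limb and position factors mostly below 0, down to -5.85 for Pitx1.

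Of 24 Polycomb genes, whose products silence Hox genes, all tested, 15 were higher in KO and 5 lower in both IL-6 states. Over all genes tested 36.4% were higher and 34.5% lower without IL-6, and 36.9% and 34.8% with it. The list had a median of 0.29 without IL-6 against 0.01 over all genes tested. Ezh2, the main H3K27 methyltransferase, was at 19.9, 21.3, 21.9 and 21.7 FPKM in WT and 46.6, 45.7, 44.4 and 47.7 in KO (1.13 ± 0.05, adjusted p = 7.43e-07). Phc1 and Cbx2, subunits of the other Polycomb complex, rose by 1.32 and 1.49 (adjusted p of 1.48e-06 and 2.9e-06). Phf19, which helps the methyltransferase complex bind chromatin, fell from 11.98 to 14.1 FPKM to 2.84 to 4.15 (-1.77 ± 0.15, adjusted p = 2.06e-05).

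Of the 14 Trithorax genes and H3K27 demethylases, which work against Polycomb, 5 were higher and 3 lower without IL-6, and 4 and 3 with it, no more than the 36.4% and 34.5% of all genes tested without IL-6. Kdm6a, an X-linked demethylase that escapes X inactivation, was at 11.5 to 13.8 FPKM in WT and 25.9 to 30.2 in KO (1.11 ± 0.08, adjusted p = 1.21e-05), beside the difference in Xist given above. Kdm6b rose by 0.56 ± 0.09 (adjusted p = 0.00102), and the histone methyltransferase Ash1l fell by 0.39 on the log2 scale (adjusted p = 0.00124). The Cdx genes, which switch on central and posterior Hox genes in the embryo, were at most 0.0733 FPKM in every library.

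Of 19 limb and position factors, 15 were tested; without IL-6, 13 were lower in KO and 1, Tbx18, was higher, and with IL-6, 13 were lower and 2, Tbx18 and Emx2, higher. Over all genes tested without IL-6, 34.5% were lower and 36.4% higher. The hindlimb genes Pitx1 and Tbx4 and the forelimb gene Tbx5 were all present in WT. Pitx1 was at 62.9, 51.3, 43.7 and 47.02 FPKM in WT and at a listed 0 in KO (-5.85 ± 0.10, adjusted p = 3.99e-09). Shox2, a gene of the upper limb segment, fell from 36.7 to 42.3 FPKM to 0.931 to 1.14 (-4.44 ± 0.05, adjusted p = 1e-09), and Prrx1, of limb mesenchyme, from 155 to 166 to 17.7 to 19.5 (-3.07 ± 0.05, adjusted p = 5.79e-09). Of 10 head mesenchyme factors, 4 were tested; Alx4 (-4.37 ± 0.07, adjusted p = 2.99e-09) and Twist1 (-1.36 ± 0.05, adjusted p = 3.7e-07) were lower without IL-6 and none was higher. With IL-6 the same 2 were lower and Dlx1 was higher (0.39 ± 0.13, adjusted p = 0.0249).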

How the data were processed

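RNA-seq of 8 MEF libraries was used (4 groups of 2). Per the labels' protocols, RNeasy columns gave the RNA and a TruSeq stranded mRNA kit the libraries. Per the submitters' processing notes, HISAT2 and Cufflinks 2.2.1 were used with GRCm38.p6. The authors deposited FPKM per transcript, 142869 transcripts a library, which were here summed per gene name. The values are not counts and hold no depth, so no count test was run.

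Groups came from the sample titles. Tests used limma 3.58.1 under R 4.3.3 (empirical Bayes, intensity trend, 4 group means over 8 libraries) on log2(FPKM + 1), for genes reaching 1 FPKM in 2 or more libraries; it was checked on simulated data. Gene positions and overlaps came from GENCODE M21, of the same build, and promoters from RefSeq; sums, sequences and plots were made in Python 3.11.15.

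The text names the members that passed a test (some results are not reported here), or where fewer than 3 passed, the 3 with the smallest p. From each other list it names up to 4 genes with the smallest p per comparison, and genes near 0 that define it. Outside this rule, and chosen after their values were seen, are Phf19, Tbx4, Tbx5, Tbx18, Emx2, Hoxb3os, Hoxaas3, Gm53 and Gm14396. Members and lists were chosen with earlier results of these data known. Alternatives were other scalings, filters and pseudocounts, no trend, a replicate block, only the groups compared, each library left out, and transcripts spanning another Hox gene left out.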

Additional observations from a re-analysis of the deposited data

How the results depend on the processing

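Under the alternatives run, 0 of 1438 values changed direction for 79 results: the genotype differences of the 33 tested members, the IL-6 changes of the 3 members named per comparison and the 4 cluster sums. Of these values 1420 kept their side of the threshold or, for the sums, moved by less than the spread between libraries. The IL-6 changes of the other members were not followed one by one. The median over the members for IL-6 in WT went from -0.01 to 0.03 with quantile normalization. It went to -0.05 with equal FPKM totals and to -0.06 without WT replicate 2. With the filter at 5 FPKM only 20 members could be tested, and 3 were higher and 17 lower in KO, both without and with IL-6, all among those called at 1 FPKM. For IL-6 in WT, 1 member passed with equal FPKM totals, 2 without the intensity trend and 3 with a pseudocount of 5. Over all 13693 genes tested, 953 were higher and 949 lower without the trend, and 1151 and 984 with a pseudocount of 5. Equal FPKM totals also moved the split of calls over all genes: 818 were higher and 1530 lower with IL-6 in WT, against 1136 and 1014. In the test of the difference the split was 478 and 390, against 348 and 482. Leaving out 1 library gave 6 to 7 higher and 26 lower members without IL-6, 6 to 7 higher and 25 to 26 lower with it, and 0 for IL-6 in either genotype and for the difference; where a group was left with 1 library, it was assumed to vary like the others.

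Without a filter Hoxb4 lost its call (adjusted p = 0.0525 without IL-6 and 0.0819 with it), as did Hoxc12 with IL-6 (0.0537); quantile normalization ended the call of Hoxb4 with IL-6 (0.0555). The cause was not tested. Without transcripts that span another Hox gene, Hoxa3 could not be tested and 6 members were higher and 26 lower. Replicate numbers were not used to pair the samples in the main test. Deviations of same-numbered libraries correlated at -0.097 to 0.055 over genes, which cannot settle whether such libraries share a culture or batch. With the replicate block 7 members were higher and 26 lower in both states and 0 changed with IL-6. FPKM values carry no depth, so values near 0 have no counting error of their own, and an exact 0 is only a listed value. With 2 libraries a group, IL-6 changes inside the printed intervals were not resolved.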
